A study of Arabidopsis thaliana with 9 samples.

Results

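Of the 7973 alternative splicing (AS) bins counted in this RNA-seq study of *Arabidopsis thaliana*, 1076 bins in 444 genes (13.5%) carried a mixed event class. A bin is a stretch of a gene cut at every annotated exon edge, and the other AS bins were classed as retained introns, skipped exons, alternative 5′ segments or alternative 3′ segments. The mixed bins were chosen by that class alone, the event label "warning" given with the bin counts, and no read count entered the choice. The authors' lists of changed bins name such bins "multiple". The study's methods use that name for bins with at least 3 different AS events in 1 part of a gene. Mixed stands for this label only, since some groups of adjoining bins held 1 shape of bin throughout. The plants were *prmt5* (allele *prmt5-5*), *prmt4a;4b* (a cross of T-DNA insertion lines in both PRMT4 genes) and wild type (WT), all in the Columbia ecotype, with 3 libraries each. Whole plants, described as a pool of tissues, were grown in continuous light at 22 °C and harvested after 15 days per the labels, and poly(A) RNA was sequenced. The study's methods give a younger age at harvest than the labels, and the sources used here do not settle which holds. No agent was given to any group. The 3 WT libraries served as the control of both mutants. The sources used here do not say whether replicates were separate cultures, so p-values measure the spread between these libraries only.

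Protein arginine methyltransferases add methyl groups to arginines of histones and of RNA-binding proteins. PRMT5 makes symmetric dimethylarginine and methylates Sm proteins, which form the core of the spliceosomal small nuclear ribonucleoproteins. PRMT4A and PRMT4B, the plant counterparts of the animal enzyme CARM1, make asymmetric dimethylarginine. In plant introns the spliceosome mostly cuts before a GT, at the 5′ or donor site, and after an AG, at the 3′ or acceptor site, and where several such sites lie close together the same transcript can be cut in several ways. The mixed bins lie in such places.

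The bins on which the results turn are printed 5′ to 3′ in the sense of the gene, each with 9 flanking bases on either side, from the RefSeq copy of the TAIR10 genome. For alternative 3′ segments the capitals mark the AG before the bin and the AG that ends it, so that the letters after each capital pair begin an exon form. The acceptor pairs of AT2G27710 (chr2:11816926-11816928), AT3G53740 (chr3:19914814-19914816) and CUL1 (chr4:1128758-1128760) are 3 bases apart, those of AT4G19110 (chr4:10455012-10455020) 9 bases and those of GLT1 (chr5:21709699-21709709) 11 bases.
AT2G27710:E004: tttttccAGaAGatgaaggtt
AT3G53740:E008: aatttacAGaAGatgacaact
CUL1:E006: cgatcgcAGcAGctctcgccg
AT4G19110:E004: caattggAGataatgcAGcagcagcat
GLT1:E023: ctcttttAGaggacacacAGgcgtaaagg

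For alternative 5′ segments the capitals mark the first 2 bases of the bin and the first 2 bases after it, the donor sites of the short and the long exon form. The segments of the 2 poly(A) polymerase genes, PAPS2 (chr2:11026166-11026195, minus strand) and nPAP (chr4:15854212-15854241, plus strand), are both 30 bases long, share 22 of the 30 bases (73.3%) and are followed by GC in place of GT. The segment of RCA lies at chr2:16571180-16571190, minus strand.
PAPS2:E007: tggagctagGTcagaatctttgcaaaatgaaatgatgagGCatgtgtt
nPAP:E018: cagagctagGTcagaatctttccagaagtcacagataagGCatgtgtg
RCA:E003: ctttctacgGTaaaacagagGTttgaaac

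For intron-shaped bins the capitals mark the first and the last 2 bases. The RCA bin (chr2:16571067-16571179, minus strand) is shown because its reads separated *prmt5* from the other genotypes, and the HOG1 bin (chr4:8055243-8055296, plus strand) because it starts with GC and not GT.
RCA:E002: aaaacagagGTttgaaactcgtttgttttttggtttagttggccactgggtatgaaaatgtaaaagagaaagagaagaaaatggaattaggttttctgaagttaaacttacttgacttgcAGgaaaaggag
HOG1:E005: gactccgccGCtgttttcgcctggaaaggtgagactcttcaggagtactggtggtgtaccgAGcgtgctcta

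Libraries held 25029646 to 39904677 reads in genes and 970452 to 1560790 reads in AS bins. PRMT4A had 26 to 65 reads a library in *prmt4a;4b*, against 284 to 410 in WT, and PRMT4B 14 to 32 in *prmt4a;4b*, against 333 to 430 in WT, whereas PRMT5 had 23.3 to 30.5 CPM (reads scaled to the size of the library) in *prmt5*, against 24.6 to 25.5 in WT, so its level did not check the *prmt5* label. PRMT4A was lower in *prmt5* as well, at 5.90 to 7.09 CPM, against 11.3 to 12.9 in WT. PRMT4B overlapped, at 9.52 to 13.5 CPM in *prmt5* and 13.3 to 13.9 in WT. The spread between replicates exceeded counting error, at a chi-square per degree of freedom of 15.0 to 69.7, and the library *prmt5* 1 stood furthest from its replicates (69.7 and 60.6, against 21.3 between the other pair). Plastid reads were 0.604 to 2.10% of gene reads in *prmt5*, 0.869 to 3.94% in *prmt4a;4b* and 0.3235 to 0.5796% in WT. The summed level of 4 leaf markers was 77595 to 82141 CPM in *prmt5*, 85869 to 97808 in *prmt4a;4b* and 69263 to 76837 in WT. CAB1 made up most of it, at 58382 to 75262 CPM in *prmt4a;4b*, against 37307 to 41885 in WT, while RBCS1A (6439 to 7925 in *prmt4a;4b*, against 11311 to 12005 in WT) and RCA (7078 to 8139 in *prmt4a;4b*, against 10544 to 11428 in WT) were lower there. The summed level of 6 root markers was 1390 to 1676 CPM in *prmt5*, 1245 to 1715 in *prmt4a;4b* and 2098 to 2189 in WT. PYK10 made up nearly all of it, at 1185 to 1653 CPM in the mutants, against 2016 to 2117 in WT. SCR was lower in the mutants as well, at 23.95 to 30.05 CPM, against 38.01 to 39.31 in WT. EXPA7 was instead higher in *prmt5* (7.499 to 15.39 CPM, against 3.298 to 6.193 in WT). SHR overlapped (CPM of 26.4 to 34.3 in the mutants, against 23.3 to 31.2 in WT), as did COBL9 and WER. The 4 flower markers together never passed 0.759 CPM, with AP1 at 0 in 8 of the 9 libraries, and 3 seed markers gave 29.97 to 248 CPM in *prmt5*, 50.5 to 63.4 in *prmt4a;4b* and 116 to 210 in WT. The part of these differences in the results below was not tested, and in such whole-plant RNA fewer cells of a type and less RNA per cell cannot be told apart.

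Every one of the 1076 mixed bins adjoined another AS bin of its gene, which no bin of the other classes did. They formed 465 runs of adjoining bins, 360 of them of 2 bins and the longest of 8, and 423 genes held 1 run and 21 genes 2 or more. A run had a median of 122 bases (6 to 961) and a bin a median of 47 bases (2 to 622). By their edges against the annotated exons, 382 bins were 3′ segments (median 15 bases), 295 introns (98), 207 5′ segments (31) and 116 exons (56), while 25 fitted several shapes and 51 none. The commonest build was an intron followed by a 3′ segment, in 106 runs (22.8%), then 3′ segments in tandem (67 runs) and a 5′ segment followed by an intron (58 runs). The splice-site letters at their edges were near those of all AS bins of the same shape. An AG stood both before and at the end of 98.4% of the mixed 3′ segments, against 98.9% of such segments of all AS bins. The first bases and those after the bin were GT in 82.1% of 5′ segments (87.3% of all), GT and AG closed 94.6% of introns (96.9%), and AG and GT flanked 95.7% of exons (98.3%). Coding sequence overlapped 561 mixed bins (52.1%), and 40.1% had a width that was a multiple of 3.

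The mixed bins took 39.5, 37.7 and 38.3% of the reads in AS bins in *prmt5*, 40.3, 37.6 and 39.2% in *prmt4a;4b*, and 36.1, 34.6 and 35.7% in WT. All 6 mutant libraries lay above the 3 WT libraries, by 3.06 percentage points on average in *prmt5* and 3.56 in *prmt4a;4b* (exact permutation p = 0.1 each, two-sided, the smallest that 3 against 3 allows). The reads were concentrated in few genes. LHCA1, a light-harvesting protein of photosystem I, held 31.4 to 42.6% of them, the polyubiquitin gene UBQ10 12.2 to 17.95%, and the 10 genes with most reads 77.7 to 84.3% in all, and none of the 3 LHCA1 bins was called in any comparison. The median bin averaged 8.78 reads a library and 40 bins had no read. Without LHCA1 the share was 27.6% in *prmt5*, 30.1% in *prmt4a;4b* and 25.9% in WT, and without the 10 genes 9.91% in *prmt5*, 11.4% in *prmt4a;4b* and 10.5% in WT, so the *prmt5* difference changed sign. As a share of gene reads the mixed bins took 1.47% ± 0.05 in *prmt5*, 1.36% ± 0.07 in *prmt4a;4b* and 1.37% ± 0.04 in WT (SD, n = 3 each), a difference of 0.0965 points for *prmt5* (exact permutation p = 0.1) and -0.0138 points for *prmt4a;4b* (exact permutation p = 0.8). The share was therefore not treated as a change of the class.

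Changes of single bins were asked of the reads of the bin and of its splicing index, the reads per base of the bin over the reads per base of its gene, which sets the bin against the level of its gene and compares only within a bin. Very short bins have high indices because reads of 100 bases that touch them are counted whole, and adjoining bins share such reads. A bin was called at a Benjamini-Hochberg adjusted p under 0.15 in edgeR's quasi-likelihood test over all AS bins tested, with log2 changes of reads and of index both beyond 0.58 in the same direction. Of 704 mixed bins tested in *prmt5*, 131 in 92 genes rose (18.6%) and 70 in 53 genes fell (9.94%), where among all 4347 AS bins tested 28.5% were called, 15.7% higher and 12.8% lower. Of 669 tested in *prmt4a;4b*, 156 in 103 genes rose (23.3%) and 77 in 54 genes fell (11.5%), with 33.0% of all 4079 AS bins called, 18.7% higher and 14.4% lower. Most of the untested bins had a mean under 5 reads in both genotypes (329 in *prmt5* against WT and 360 in *prmt4a;4b* against WT). A bin that reached 5 reads in the mutant alone could only be tested because it was high there, as for 118 bins in *prmt5* and 88 in *prmt4a;4b*. Bins that reached 5 reads in WT alone were fewer, 24 against *prmt5* and 43 against *prmt4a;4b*. In the test of the mutants against each other 81 bins reached 5 reads in *prmt5* alone and 35 in *prmt4a;4b* alone. The same holds for bins whose index passed its limit of 0.05 in 1 genotype only, and such bins are marked where they are named. The median log2 index change of the mixed bins was 0.23 in *prmt5* and 0.26 in *prmt4a;4b*, against 0.15 and 0.10 in the same mutants over all AS bins tested.

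By shape, the introns were the most one-sided of the 4 main shapes in the bins tested. Rises from bins that reached 5 reads in the mutant alone were not counted apart, so the part of this filter was not tested. Of the intron-shaped bins, 58 rose and 6 fell of 178 tested in *prmt5*, and 51 rose and 7 fell of 160 in *prmt4a;4b*, with median log2 index changes of 0.72 in each. The 3′ segments were nearer to balance, with 25 higher and 34 lower of 270 in *prmt5* and 57 higher and 38 lower of 269 in *prmt4a;4b*. Those of at most 3 bases, the acceptors side by side, gave 2 higher and 9 lower of 45 in *prmt5* and 5 higher and 13 lower of 47 in *prmt4a;4b*. Segments of that length were not counted apart among all AS bins. Among 5′ segments 30 rose and 12 fell of 132 in *prmt5*, and 24 rose and 14 fell of 121 in *prmt4a;4b*. Exon-shaped bins were even, with 12 higher and 11 lower of 78 in *prmt5*, and 16 higher and 13 lower of 74 in *prmt4a;4b*. Among bins of a single event, 282 retained introns were higher and 75 lower of 1211 in *prmt5* and 257 higher and 76 lower of 1085 in *prmt4a;4b*, while alternative 3′ segments gave 132 and 251 of 1410, and 203 and 282 of 1362. Alternative 5′ segments of a single event did not lean upward, with 96 higher and 114 lower of 651 in *prmt5*, and 96 and 102 of 615 in *prmt4a;4b*. Skipped exons gave 41 and 46 of 371 in *prmt5*, and 49 and 50 of 348 in *prmt4a;4b*. Bins without coding sequence had 79 higher and 21 lower of 317 in *prmt5*, coding bins 52 and 49 of 387. In *prmt4a;4b* these counts were 88 and 25 of 291, and 68 and 52 of 378. Only 109 of the 295 intron-shaped mixed bins overlapped coding sequence, so this split and the shapes cannot be told apart here. It was not counted over all AS bins. Introns outside AS events took 1.98 to 2.10% of gene reads in *prmt5*, 1.56 to 1.76% in *prmt4a;4b* and 1.63 to 1.70% in WT, and whether this level moved the intron-shaped bins was not tested.

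**Figure D1:**
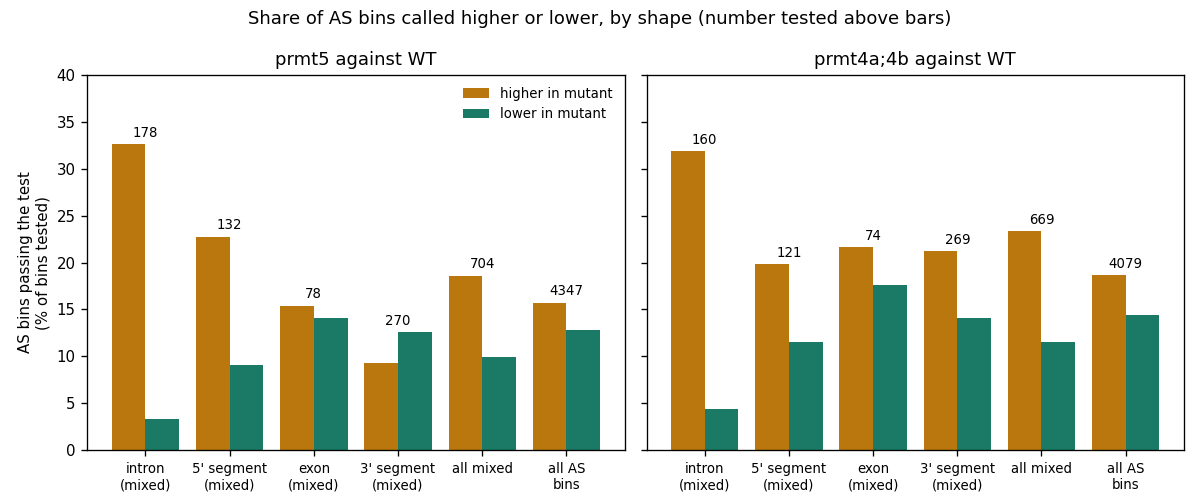
Share of tested AS bins (y axis, percent of bins tested) called higher (brown) or lower (green) in *prmt5* (left panel) and *prmt4a;4b* (right panel) against WT, by the shape of mixed bins, for all mixed bins and for all AS bins, with the number tested above each pair of bars. Intron-shaped mixed bins reached 32.6% higher in *prmt5* and 31.9% in *prmt4a;4b*, with 3.37 and 4.38% lower.

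The host genes themselves were called about as often as other genes, at an adjusted p below 0.10 and a log2 change of more than 0.58 in edgeR. In *prmt5* 47 of 429 host genes rose and 73 fell (28.0%), where 26.1% of all genes were called, 11.9% higher and 14.2% lower. The *prmt4a;4b* counts were 60 and 46 of 428 host genes (24.8%), where 25.8% of all genes were called, 13.8% higher and 12.0% lower. Between the mutants, 31 of 430 stood higher in *prmt5* and 50 lower (18.8%), where 17.9% of all genes did, 9.44% higher and 8.51% lower. Of the 92 genes with a bin that rose in *prmt5*, 75 did not pass the gene test, and of the 103 in *prmt4a;4b*, 78.

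The rises named in *prmt5* were led by AT1G51200, an A20/AN1 zinc finger gene of the family known for stress responses. Its 162-base intron in the untranslated region (chr1:18984562-18984723), left in 1 of 4 annotated transcripts, had 72, 122 and 123 reads in *prmt5*, 12, 16 and 13 in *prmt4a;4b* and 16, 32 and 9 in WT. Its splicing index was 0.128 ± 0.012 in *prmt5*, 0.0185 ± 0.0012 in *prmt4a;4b* and 0.0181 ± 0.0104 in WT (SD, n = 3 each). The *prmt5* libraries stood apart from the other 6 (log2 read change 2.34, SE 0.34, adjusted p = 8.68e-05 against WT), and so they did against *prmt4a;4b* (2.56, SE 0.35, adjusted p = 3.23e-05). The index passed the limit for testing only in *prmt5*, so the bin could be tested only because it was high there, and *prmt4a;4b* against WT was not tested. The 332-base intron AT5G66250:E004 had 66, 122 and 98 reads in *prmt5*, 26, 28 and 21 in *prmt4a;4b* and 28, 42 and 33 in WT, and its index of 1.30 ± 0.07 in *prmt5* exceeded the 0.551 ± 0.106 of *prmt4a;4b* and 0.361 ± 0.125 of WT (log2 read change 1.30, SE 0.28, adjusted p = 0.00261 against WT, and 1.54, SE 0.29, adjusted p = 0.00133 against *prmt4a;4b*). The gene itself fell in both mutants (log2 -0.63 in *prmt5* and -0.86 in *prmt4a;4b*).

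MYB59, a MYB transcription factor gene whose introns are alternatively spliced, kept an untranslated 79-base intron (E003) with 117, 84 and 93 reads in *prmt5*, 44, 65 and 85 in *prmt4a;4b* and 51, 62 and 51 in WT. Its gene fell (log2 -0.90 in *prmt5*), so the index, 1.90 ± 0.47 in *prmt5*, 1.48 ± 0.28 in *prmt4a;4b* and 0.635 ± 0.166 in WT, changed more than the reads (log2 1.61 against 0.71, SE 0.28, adjusted p = 0.063). The call was lost without *prmt5* 1 (log2 read change 0.45, adjusted p = 0.263) and without WT 1 (0.65, adjusted p = 0.187), and in *prmt4a;4b* the reads did not pass (0.49, adjusted p = 0.201). The *prmt4a;4b* indices nevertheless lay above those of WT without overlap (log2 index change 1.31). With gene reads as an offset the bin was called in *prmt4a;4b* too (1.25, adjusted p = 0.00273). GR-RBP2, a glycine-rich RNA-binding protein, had a 3-base 5′ segment (E008) with 45, 69 and 72 reads in *prmt5*, 53, 28 and 21 in *prmt4a;4b* and 37, 23 and 21 in WT. Its index was 12.7 ± 1.6 in *prmt5*, against 4.91 ± 1.58 in WT (log2 read change 1.03, SE 0.32, adjusted p = 0.024). In *prmt4a;4b*, where 1 library had an index of 16.6 and the others 7.88 and 8.21, the change did not pass (0.59, adjusted p = 0.271). These indices did not overlap WT (log2 index change 1.20), and with gene reads as an offset the bin was called in *prmt4a;4b* (1.16, adjusted p = 0.0341).

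The falls named in *prmt5* included short acceptor segments of genes for ribosomal proteins and for nitrogen assimilation, which fell in *prmt4a;4b* as well. The AT2G27710 bin is an untranslated stretch of a 60S acidic ribosomal protein gene, and in its printed sequence an ATG follows the capital pairs. It had 98, 146 and 108 reads in *prmt5*, 81, 63 and 68 in *prmt4a;4b* and 416, 614 and 169 in WT, and an index of 3.68 ± 0.55 in *prmt5*, 3.18 ± 0.34 in *prmt4a;4b* and 18.4 ± 8.1 in WT. No mutant library reached the lowest WT library, WT 3, whose index was 9.89 (log2 read change -1.87, SE 0.30, adjusted p = 0.000201 in *prmt5*, and -2.17, SE 0.30, adjusted p = 3.53e-05 in *prmt4a;4b*). AT3G53740, a gene of the L36e ribosomal protein family, has the same letters between its acceptors (AGaAG followed by ATG) and its bin had 53, 99 and 56 reads in *prmt5*, 35, 62 and 41 in *prmt4a;4b* and 210, 260 and 111 in WT. Its index was 2.51 ± 0.65 in *prmt5*, 2.45 ± 0.75 in *prmt4a;4b* and 10.8 ± 3.2 in WT (log2 read change -1.62, SE 0.27, adjusted p = 0.000353 in *prmt5*, and -1.79, SE 0.27, adjusted p = 7.90e-05 in *prmt4a;4b*). GLT1, the NADH-dependent glutamate synthase, had 115, 287 and 159 reads in its untranslated 11-base segment in *prmt5*, 179, 168 and 161 in *prmt4a;4b* and 728, 930 and 337 in WT. The index was 3.84 ± 1.19 in *prmt5*, 5.97 ± 0.61 in *prmt4a;4b* and 17.3 ± 6.6 in WT (log2 read change -1.98, SE 0.29, adjusted p = 8.85e-05 in *prmt5*, and -1.66, SE 0.24, adjusted p = 6.33e-05 in *prmt4a;4b*). WT 3 was the lowest WT library in these 3 bins, and all 3 calls held without it. None of the 3 genes passed the gene test in either mutant.

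VAB2, a B subunit of the vacuolar proton pump, differed between the mutants. Its 57-base untranslated 5′ segment (E017) had 8, 5 and 14 reads in *prmt5*, 41, 24 and 28 in *prmt4a;4b* and 60, 41 and 57 in WT, and the index was 0.105 ± 0.056 in *prmt5*, 0.485 ± 0.123 in *prmt4a;4b* and 0.638 ± 0.204 in WT. It fell in *prmt5* (log2 read change -2.70, SE 0.43, adjusted p = 0.000217) and was below *prmt4a;4b* in the direct test (-2.14, SE 0.44, adjusted p = 0.0031), while *prmt4a;4b* against WT did not pass (-0.53, adjusted p = 0.252).

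In *prmt4a;4b* the rises were led by FYD, ACHT4, AT3G58030, SIZ1 and HOG1. FYD had an untranslated 87-base exon (E005) with 44, 41 and 28 reads in *prmt5*, 39, 81 and 45 in *prmt4a;4b* and 25, 21 and 16 in WT. Its index was 1.18 ± 0.42 in *prmt4a;4b*, against 0.378 ± 0.076 in WT (log2 read change 1.64, SE 0.34, adjusted p = 0.00145). In *prmt5* it also rose, near the limit (0.73, SE 0.37, adjusted p = 0.147), and that call was lost without any 1 of 5 of the 6 libraries, as without *prmt5* 1 (0.48, adjusted p = 0.431). ACHT4, an atypical thioredoxin of the chloroplast, kept an 85-base intron (E005) with 48, 51 and 38 reads in *prmt5*, 57, 69 and 75 in *prmt4a;4b* and 30, 30 and 27 in WT. The index was 0.428 ± 0.084 in *prmt5*, 0.758 ± 0.173 in *prmt4a;4b* and 0.255 ± 0.028 in WT, so the genotypes did not overlap (log2 read change 1.45, SE 0.29, adjusted p = 0.00108 in *prmt4a;4b* against WT). AT3G58030, a RING finger gene, had a 175-base untranslated intron (E005) with an index of 1.39 ± 0.29 in *prmt4a;4b*, against 0.481 ± 0.038 in WT (log2 read change 0.79, SE 0.30, adjusted p = 0.0492), a call lost without *prmt4a;4b* 2 (adjusted p = 0.16) or *prmt4a;4b* 3 (adjusted p = 0.175). Its gene fell in *prmt4a;4b* (log2 -0.72), and with gene reads as an offset the change was 1.53. In *prmt5* the reads of this intron did not pass (0.30, adjusted p = 0.491). The *prmt5* indices nevertheless lay above those of WT without overlap (log2 index change 0.95). With gene reads as an offset the bin was called in *prmt5* too (1.01, adjusted p = 0.0274). The direct test of the mutants did not pass (-0.45, adjusted p = 0.356).

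The falls in *prmt4a;4b* were in AT2G27710 and AT3G53740, given above, in 2 kinases and in a splicing factor gene. AT4G19110, a kinase gene, had 78, 171 and 151 reads in its 9-base acceptor segment in *prmt5*, 32, 46 and 27 in *prmt4a;4b* and 138, 207 and 97 in WT. Its index was 4.34 ± 0.71 in *prmt5*, 1.93 ± 0.33 in *prmt4a;4b* and 7.57 ± 2.34 in WT. It fell in *prmt4a;4b* (log2 read change -1.79, SE 0.27, adjusted p = 9.23e-05) and stood higher in *prmt5* than in *prmt4a;4b* (1.54, SE 0.28, adjusted p = 0.000965). Against WT the *prmt5* reads of this bin did not pass (-0.29, adjusted p = 0.428). The *prmt5* indices nevertheless lay below those of WT without overlap (log2 index change -0.79). With gene reads as an offset the bin was called lower in *prmt5* too (-0.80, adjusted p = 0.0195). CPK28, a calcium-dependent protein kinase of growth and immune signaling, had an exon bin of 176 bases (E006) with 66, 137 and 93 reads in *prmt5*, 45, 60 and 35 in *prmt4a;4b* and 105, 393 and 95 in WT. The index was 0.604 ± 0.089 in *prmt5*, 0.497 ± 0.067 in *prmt4a;4b* and 1.89 ± 0.60 in WT and fell in both mutants (log2 read change -1.10, SE 0.36, adjusted p = 0.0288 in *prmt5*, and -1.75, SE 0.37, adjusted p = 0.00147 in *prmt4a;4b*). WT 2 carried most of the WT reads, and without it the *prmt5* change did not pass (-0.32, adjusted p = 0.475). The CPK28 gene rose in *prmt5* (log2 0.63), and with gene reads as an offset the bin change there was -1.66. AT2G16940, whose product RefSeq names a CC1-like splicing factor, had 29, 60 and 58 reads in a 31-base 5′ segment (E017) in *prmt5*, 7, 26 and 20 in *prmt4a;4b* and 70, 98 and 41 in WT. It fell in *prmt4a;4b* (log2 read change -1.70, SE 0.38, adjusted p = 0.00234). In *prmt5* the fall (-0.65, SE 0.30, adjusted p = 0.121) did not pass without *prmt5* 1 (adjusted p = 0.313), *prmt5* 2 (adjusted p = 0.177), WT 1 (adjusted p = 0.222) or WT 2 (adjusted p = 0.365).

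Among bins that rose in both mutants, those named were in SIZ1, AT5G25560, NET4A, alpha-ADR and HOG1. SIZ1, a SUMO E3 ligase of stress and hormone responses, kept an 85-base intron (E021) with 61, 100 and 74 reads in *prmt5*, 41, 59 and 60 in *prmt4a;4b* and 25, 23 and 34 in WT. Its index was 1.72 ± 0.12 in *prmt5*, 1.83 ± 0.45 in *prmt4a;4b* and 0.692 ± 0.267 in WT (log2 read change 1.32, SE 0.32, adjusted p = 0.00483 in *prmt5*, and 1.17, SE 0.34, adjusted p = 0.0125 in *prmt4a;4b*). The 41-base segment in front of it rose too, with log2 index changes of 0.88 in *prmt5* and 1.10 in *prmt4a;4b*. AT5G25560, a zinc finger gene, had a 339-base untranslated 5′ segment with an index of 1.81 ± 0.20 in *prmt5*, 1.73 ± 0.10 in *prmt4a;4b* and 0.878 ± 0.280 in WT. NET4A, of a family that binds actin, had a 5-base acceptor segment with 83, 133 and 87 reads in *prmt5*, 52, 74 and 70 in *prmt4a;4b* and 37, 30 and 35 in WT. alpha-ADR, an adaptor subunit of clathrin-coated vesicles, had 270, 233 and 217 reads in a 23-base segment in *prmt5*, 144, 224 and 188 in *prmt4a;4b* and 120, 124 and 99 in WT, which gave log2 index changes of 0.85 in *prmt5* and 0.94 in *prmt4a;4b*. Each of these mutant values lay above every WT value. Both mutants were set against the same WT libraries, so these pairs of changes are not independent of each other. No mixed bin rose in 1 mutant and fell in the other.

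**Figure D2:**
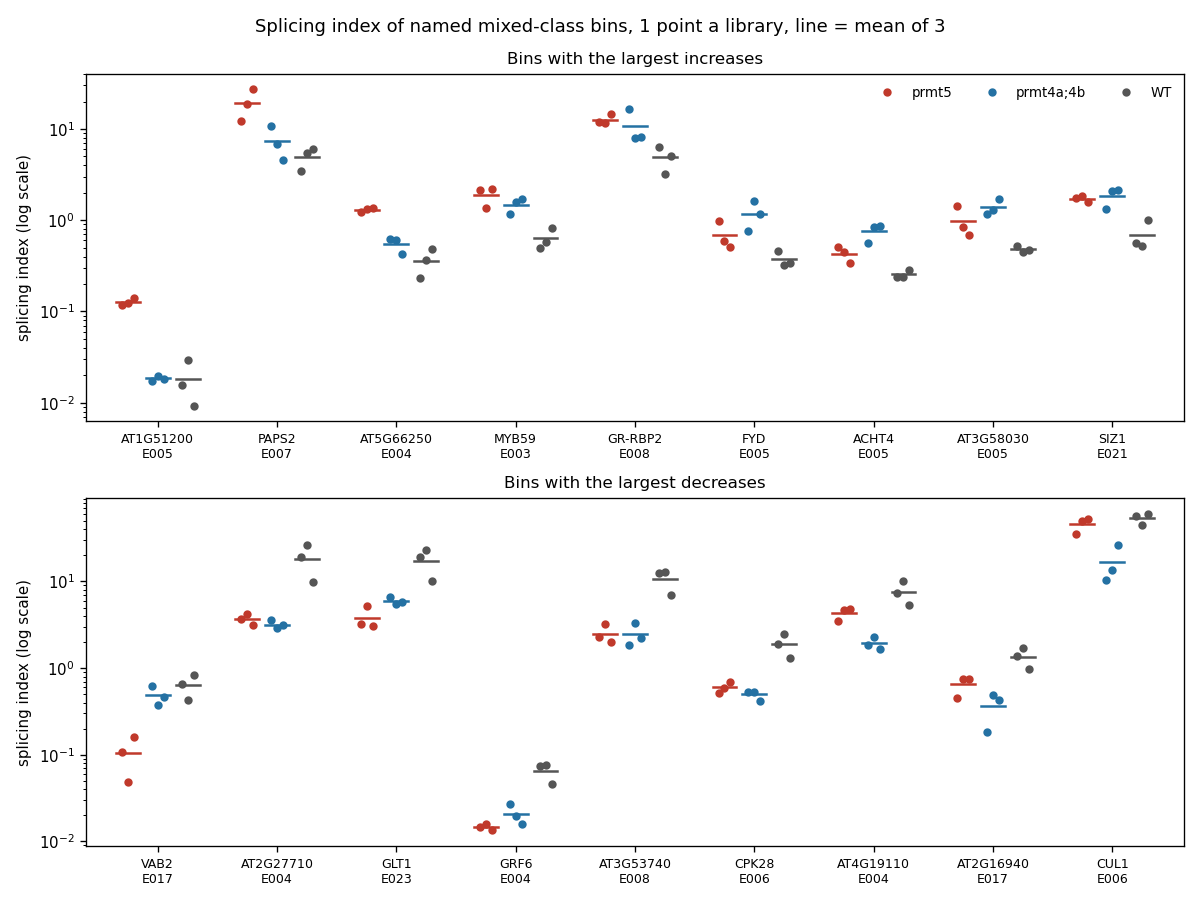
Splicing index (log scale, no unit) of the named bins with the largest rises (upper panel) and falls (lower panel), with 1 point a library and a line at the mean of 3, in the order *prmt5*, *prmt4a;4b*, WT. The *prmt5* points of AT1G51200 lie between 0.118 and 0.142, above all others, and the 6 mutant points of AT2G27710 lie between 2.88 and 4.23, below the WT points of 9.89 to 26.1.

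Set against each other directly, the mutants differed in 86 of 708 mixed bins tested. In *prmt5* 50 bins stood higher (7.06%) and 36 lower (5.08%) than in *prmt4a;4b*, where 10.6% of all 4279 AS bins were called, 7.10% higher and 3.51% lower. These counts changed with the library left out. They were 30 higher and 18 lower without *prmt5* 2, 35 and 15 without *prmt5* 3, and 35 and 22 without *prmt4a;4b* 3. Without *prmt5* 1 they were 50 and 41, without *prmt4a;4b* 1 43 and 41, and without *prmt4a;4b* 2 43 and 27. The share of all AS bins called moved as well, from 6.48% without *prmt5* 2 to 12.5% without *prmt5* 1. CUL1, the cullin scaffold of SCF ubiquitin ligases, had 74, 136 and 102 reads in its 3-base acceptor bin in *prmt5*, 16, 29 and 48 in *prmt4a;4b* and 166, 142 and 121 in WT. Its index was 45.9 ± 9.1 in *prmt5*, 16.9 ± 8.6 in *prmt4a;4b* and 53.8 ± 7.7 in WT, so *prmt4a;4b* alone lay apart (log2 read change 1.35, SE 0.31, adjusted p = 0.00703 in *prmt5* against *prmt4a;4b*). AT2G33620, an AT-hook DNA-binding protein gene, kept a 276-base untranslated intron (E005) with 55, 52 and 54 reads in *prmt5*, 15, 16 and 15 in *prmt4a;4b* and 16, 30 and 10 in WT (1.45, SE 0.36, adjusted p = 0.0125). DYL1, a dormancy-associated gene, had 441, 425 and 275 reads in a 48-base bin of no single shape (E007) in *prmt5*, 133, 125 and 137 in *prmt4a;4b* and 73, 65 and 78 in WT (1.17, SE 0.26, adjusted p = 0.00431). The gene rose in both mutants (log2 1.24 in *prmt5* and 1.51 in *prmt4a;4b*), and the index was 0.590 ± 0.084 in *prmt5*, 0.232 ± 0.059 in *prmt4a;4b* and 0.299 ± 0.012 in WT.

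Lower in *prmt5* than in *prmt4a;4b* were bins of RLM3, ACHT4, PAI1, nPAP and AT5G36790. RLM3, a TIR-class disease resistance gene, kept an 80-base intron (E010) with 48, 52 and 30 reads in *prmt5*, 67, 89 and 68 in *prmt4a;4b* and 39, 37 and 43 in WT (log2 read change -1.14, SE 0.29, adjusted p = 0.0148), and it rose in *prmt4a;4b* against WT (1.13, SE 0.28, adjusted p = 0.00514). For ACHT4 the difference (-0.91, SE 0.28, adjusted p = 0.0412) was lost without *prmt5* 3 (adjusted p = 0.179) or *prmt4a;4b* 3 (adjusted p = 0.166). FYD stood lower too (-0.87, SE 0.33, adjusted p = 0.0973), but not without *prmt5* 2 (adjusted p = 0.262), *prmt5* 3 (adjusted p = 0.326) or *prmt4a;4b* 2 (adjusted p = 0.39) or with gene reads as an offset (adjusted p = 0.195), and AT2G16940 stood higher (1.10, SE 0.38, adjusted p = 0.0668), but not without *prmt5* 2 (adjusted p = 0.192), *prmt5* 3 (adjusted p = 0.259) or *prmt4a;4b* 1 (adjusted p = 0.235) or with that offset (adjusted p = 0.233). PAI1, a phosphoribosylanthranilate isomerase of tryptophan synthesis, had 3, 61 and 34 reads in a 26-base untranslated exon in *prmt5*, 53, 58 and 67 in *prmt4a;4b* and 259, 226 and 101 in WT. The library *prmt5* 1 was far below its replicates there, and the difference (-1.30, SE 0.44, adjusted p = 0.0622) was lost without *prmt4a;4b* 3 (adjusted p = 0.179). PAI1 fell against WT in *prmt5* (-2.76, SE 0.46, adjusted p = 0.000324) and *prmt4a;4b* (-1.43, SE 0.27, adjusted p = 0.000732), the second with an index change of -0.60 that was -0.47 without WT 1 and -0.44 without *prmt4a;4b* 2, inside the limit. The PAI1 gene fell as well (log2 -1.18 in *prmt5* and -0.85 in *prmt4a;4b*). With gene reads as an offset the bin change came to -1.61 for *prmt5* (adjusted p = 0.00782), while for *prmt4a;4b* it came to -0.54 (adjusted p = 0.0748), inside the limit. AT5G36790, a phosphoglycolate phosphatase gene of photorespiration, had 59, 71 and 50 reads in a 16-base segment in *prmt5*, 68, 107 and 69 in *prmt4a;4b* and 54, 51 and 29 in WT (-0.79, SE 0.27, adjusted p = 0.0655). Its bins have 1 other exact copy in the genome, so its counts are uncertain, and the difference was lost without *prmt5* 2 (adjusted p = 0.168), *prmt5* 3 (adjusted p = 0.245) or *prmt4a;4b* 2 (adjusted p = 0.239).

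The like 30-base donor segments of the poly(A) polymerase genes moved apart in *prmt5*. PAPS2 and nPAP encode nuclear enzymes that add the poly(A) tail to transcripts. In PAPS2 the segment had 53, 89 and 106 reads in *prmt5*, 63, 49 and 28 in *prmt4a;4b* and 21, 36 and 26 in WT, and its index was 19.4 ± 7.5 in *prmt5*, 7.40 ± 3.14 in *prmt4a;4b* and 4.94 ± 1.33 in WT. It rose in *prmt5* (log2 read change 1.41, SE 0.31, adjusted p = 0.00284), as did the 84-base intron behind it (1.07, SE 0.36, adjusted p = 0.0348). In *prmt4a;4b* the segment was called with overlapping indices (1.01, SE 0.36, adjusted p = 0.0372), and its index change of 0.59 fell to 0.37 without WT 1 and 0.26 without *prmt4a;4b* 1, below the limit. With gene reads as an offset this call did not pass (0.59, adjusted p = 0.224). In nPAP the segment had 78, 108 and 64 reads in *prmt5*, 103, 118 and 126 in *prmt4a;4b* and 182, 151 and 133 in WT, and its index was 4.38 ± 0.73 in *prmt5*, 8.10 ± 0.87 in *prmt4a;4b* and 8.80 ± 1.04 in WT. It fell in *prmt5* against WT (-1.07, SE 0.25, adjusted p = 0.0045) and was lower than in *prmt4a;4b* (-0.85, SE 0.25, adjusted p = 0.0297), though not without *prmt5* 3 (adjusted p = 0.16), and *prmt4a;4b* against WT did not pass (-0.18, adjusted p = 0.561). Neither segment has another exact copy in the genome.

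nPAP had the most tested mixed bins of any gene, 9 in a region where the annotation lists 17 transcripts. In *prmt5* the 138-base nPAP intron E013 rose, with 26, 17 and 16 reads in *prmt5*, 9, 10 and 8 in *prmt4a;4b* and 10, 4 and 3 in WT (log2 read change 1.66, SE 0.59, adjusted p = 0.0441), as did the 83-base intron E015 (2.37, SE 0.93, adjusted p = 0.0628), which passed the limits for testing only in *prmt5*, while the 36-base acceptor segment E022 fell (-0.66, SE 0.26, adjusted p = 0.0649). In *prmt4a;4b* the 72-base intron E020 rose, with 36, 65 and 41 reads in *prmt5*, 43, 67 and 58 in *prmt4a;4b* and 28, 43 and 36 in WT (0.89, SE 0.30, adjusted p = 0.0308). The 4-base segment E019 was called there as well (0.68, SE 0.33, adjusted p = 0.122), but only in 8 of 17 other settings. Without *prmt5* 1 the adjusted p was 0.206 for E013 and 0.181 for E015, without WT 2 it was 0.173 for E015 and 0.188 for E022, and without *prmt5* 3 it was 0.265 for E022. The reads of the nPAP gene did not pass the test in either mutant (log2 -0.07 in *prmt5* and -0.05 in *prmt4a;4b*).

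**Figure D3:**
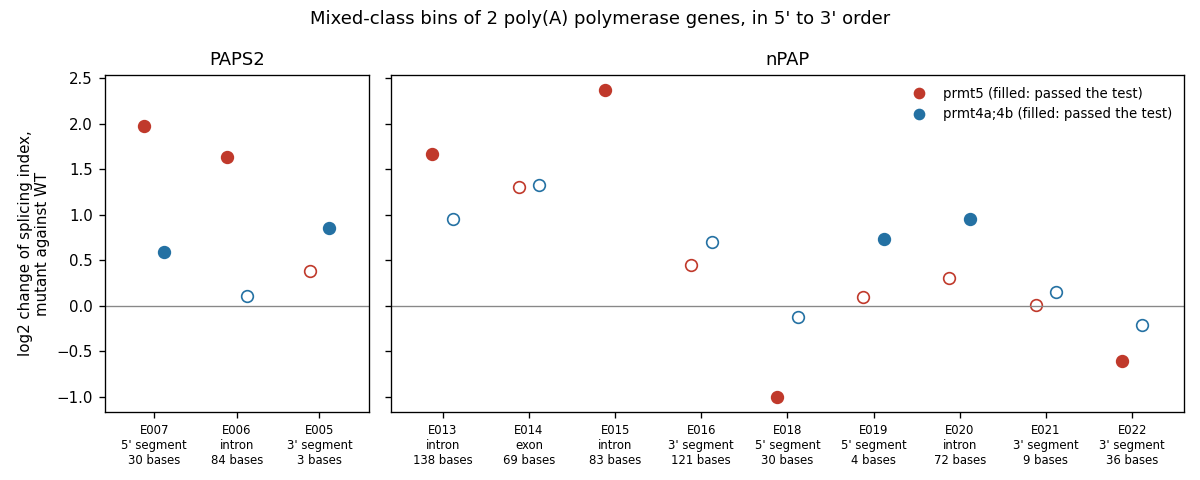
Log2 change of the splicing index against WT (y axis) for the mixed bins of PAPS2 (left) and nPAP (right) in 5′ to 3′ order, *prmt5* in red and *prmt4a;4b* in blue, with filled points where the bin passed the test and no *prmt4a;4b* point for E015, which was not tested there. The 30-base segment lies at 1.97 in PAPS2 and at -1.0 in nPAP in *prmt5*.

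Some of the most abundant mixed bins belonged to genes of photosynthesis and of the methyl cycle. RCA, the activase that keeps Rubisco open, has a run of an 11-base 5′ segment and a 113-base intron. The intron had 6480, 6760 and 5295 reads in *prmt5*, 2046, 1743 and 1618 in *prmt4a;4b* and 1752, 1702 and 2310 in WT, and its index was 0.252 ± 0.081 in *prmt5*, 0.143 ± 0.011 in *prmt4a;4b* and 0.109 ± 0.035 in WT. It rose in *prmt5* (log2 read change 1.5, SE 0.23, adjusted p = 0.000149) and stood above *prmt4a;4b* (1.41, SE 0.23, adjusted p = 0.000261), where the index change of 0.75 fell to 0.53 without *prmt5* 1, below the limit. The RCA gene was higher in *prmt5* than in *prmt4a;4b* (log2 0.63), and with gene reads as an offset the difference of the intron was 0.82. The 11-base segment before it rose in *prmt4a;4b* instead, with an index of 18.2 ± 1.0, against 9.53 ± 0.22 in WT (log2 read change 0.67, SE 0.14, adjusted p = 0.00136), and 11.4 ± 2.6 in *prmt5*. With scaling factors taken from the AS bins this read change was 0.54, under the limit of 0.58.

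HOG1, the S-adenosylhomocysteine hydrolase that clears the by-product of methyl transfer, had a run of 3 bins with 5093 to 11610 reads a library. Its 54-base GC-AG bin had 10315, 10497 and 10458 reads in *prmt5*, 11610, 9789 and 9803 in *prmt4a;4b* and 5507, 5755 and 5955 in WT. The index was 9.68 ± 2.16 in *prmt5*, 12.3 ± 1.2 in *prmt4a;4b* and 5.45 ± 0.53 in WT, and it rose in both mutants (log2 read change 0.70, SE 0.19, adjusted p = 0.0115 in *prmt5*, and 1.10, SE 0.17, adjusted p = 0.000124 in *prmt4a;4b*). The 81-base segment after it rose too (0.68 in *prmt5* and 1.13 in *prmt4a;4b*), in *prmt5* with an index of 7.52 in *prmt5* 1 and of 4.94 and 5.33 in the other libraries, and its *prmt5* read change was 0.57, under the limit, without *prmt5* 1 or WT 2. The gene did not pass in either mutant (log2 -0.11 in *prmt5* and -0.07 in *prmt4a;4b*).

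CCR1 (also GRP8), a glycine-rich RNA-binding protein that binds its own transcript and cycles with the clock, had 4 mixed bins. In *prmt4a;4b* 3 of them rose, with log2 index changes of 0.95, 0.84 and 0.90. In *prmt5* the 93-base 3′ segment alone was called, with 1120, 1036 and 1075 reads in *prmt5*, 706, 915 and 755 in *prmt4a;4b* and 442, 401 and 459 in WT (log2 read change 1.15, SE 0.23, adjusted p = 0.0013 in *prmt5*, and 1.08, SE 0.20, adjusted p = 0.000578 in *prmt4a;4b*). Its index change of 0.70 in *prmt5* was 0.53, below the limit, without *prmt5* 1. The difference between the mutants did not pass in any of the 4 bins.

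**Figure D4:**
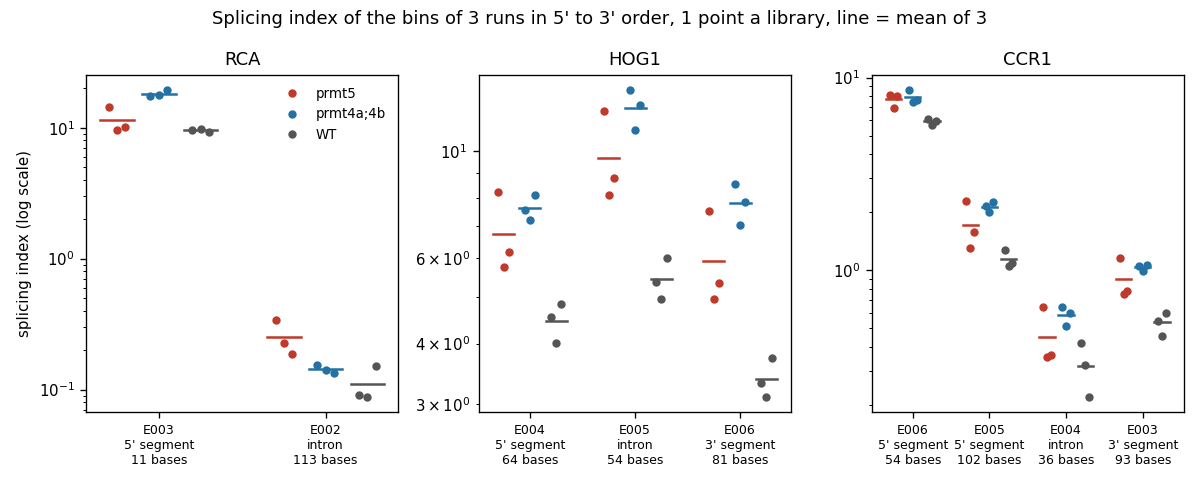
Splicing index (log scale, no unit) of the mixed bins of RCA, HOG1 and CCR1 in 5′ to 3′ order, with 1 point a library and a line at the mean of 3. The RCA intron is high in *prmt5* (0.188 to 0.343), while its 11-base segment is high in *prmt4a;4b* (17.4 to 19.4).

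Mixed bins were also counted in lists of genes of the processes in which these enzymes are studied. Among all 21078 genes tested in *prmt5* against WT, 429 held a mixed bin. Of 20 genes of SR splicing factors 1 had mixed bins (RS41, 2 bins, none called). Of 30 other RNA processing genes 2 did, CCR1 and U2AF65A, with 1 of 6 bins higher in *prmt5* and 4 higher in *prmt4a;4b*. U2AF65A, the large U2AF subunit that binds the tract before the acceptor, kept a 100-base intron with 60, 75 and 54 reads in *prmt5*, 54, 58 and 83 in *prmt4a;4b* and 43, 46 and 36 in WT. It rose in *prmt4a;4b* (log2 read change 0.90, SE 0.29, adjusted p = 0.0238), though not without *prmt4a;4b* 3 (0.63, adjusted p = 0.18). Of 22 clock genes 1 did (LNK2, an activator of evening genes), with a 93-base intron of 6, 4 and 8 reads in *prmt5*, 9, 15 and 20 in *prmt4a;4b* and 14, 2 and 2 in WT. It was called in *prmt4a;4b* (1.52, SE 0.70, adjusted p = 0.101), where the index passed the limit for testing in *prmt4a;4b* only, and this was lost without WT 2 (adjusted p = 0.262), WT 3 (adjusted p = 0.194), *prmt4a;4b* 2 (adjusted p = 0.166) or *prmt4a;4b* 3 (adjusted p = 0.32). LNK2 stood lower in *prmt5* than in *prmt4a;4b* (-1.61, SE 0.68, adjusted p = 0.146), with an adjusted p of 0.177 to 0.389 without any 1 of the *prmt5* libraries, *prmt4a;4b* 2 or *prmt4a;4b* 3. The LNK2 gene itself was lower in *prmt5* than in *prmt4a;4b* (log2 -0.84, adjusted p = 0.00275) and WT (-1.38), and with gene reads as an offset the bin difference was -0.77 (adjusted p = 0.577). It did not pass with DESeq2 (adjusted p = 0.166) or scaling from the AS bins (adjusted p = 0.158) either, and was called in 8 of 18 other settings. Of 27 genes of salt, drought and abscisic acid responses 1 did (CIPK3, a kinase of calcium signaling), with a 66-base bin of 12, 14 and 10 reads in *prmt5*, 3, 17 and 8 in *prmt4a;4b* and 5, 4 and 2 in WT. It was called in *prmt5* (1.54, SE 0.68, adjusted p = 0.0978) and *prmt4a;4b* (1.54, SE 0.78, adjusted p = 0.136), with an adjusted p between 0.158 and 0.217 in *prmt5* without WT 2 or any 1 of the *prmt5* libraries, and in *prmt4a;4b* the call was lost without any 1 library but *prmt4a;4b* 1 and with gene reads as an offset (1.21, adjusted p = 0.242). The WT mean was under 5 reads, so this bin could be tested only because the mutants were high. Of 30 light signaling genes 1 did (HYH, 3 bins, none called), and of 18 flowering genes none. No mixed bin belonged to U2AF35A, ELF5, SOS4, PRR9, AT5G63460 or AT3G17100, which the study names.

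Many runs had a single called bin. Among runs with 2 or more tested bins and a call, this held for 64 of 114 in *prmt5* and 63 of 126 in *prmt4a;4b*. Where several bins of 1 run were called, they mostly had the same direction. In *prmt5* 50 runs had 2 or more called bins, of which 31 rose throughout, 16 fell throughout and 3 did both, and in *prmt4a;4b* 63 runs split into 42, 20 and 1. Adjoining bins share reads, so bins of a run are not independent. The runs with both directions were picked after their values were seen. In AT2G45990, whose product RefSeq names an rRNA small subunit methyltransferase, a 101-base intron had 38, 53 and 34 reads in *prmt5*, 13, 16 and 10 in *prmt4a;4b* and 4, 8 and 4 in WT (log2 read change 2.79, SE 0.44, adjusted p = 0.000214 in *prmt5*). The 15-base acceptor segment that follows it had 42, 44 and 37 reads in *prmt5*, 48, 54 and 40 in *prmt4a;4b* and 125, 145 and 34 in WT (-1.39, SE 0.35, adjusted p = 0.00652 in *prmt5*), and the 34 reads of WT 3 lay below every mutant library, so the genotypes overlapped. In GRF6, a 14-3-3 protein gene, the 94-base intron E004 had 15, 20 and 15 reads in *prmt5*, 25, 17 and 14 in *prmt4a;4b* and 61, 67 and 34 in WT and fell in both mutants (-1.82, SE 0.34, adjusted p = 0.000797 in *prmt5*, and -1.24, SE 0.36, adjusted p = 0.0127 in *prmt4a;4b*), with an index that passed the limit for testing in WT alone, while the 99-base segment after it, with 80, 70 and 84 reads in *prmt5*, 37, 52 and 41 in *prmt4a;4b* and 30, 30 and 16 in WT, rose in *prmt5* (1.5, SE 0.31, adjusted p = 0.0017), where its index passed that limit in *prmt5* only. In CPK28 a 31-base segment rose in *prmt5* (1.48, SE 0.46, adjusted p = 0.0226) beside the exon that fell.

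In MLP28, a gene of the major latex protein family, the pair lay in *prmt4a;4b*. Its 45-base segment E008 had 12046, 8315 and 7469 reads in *prmt5*, 14729, 10757 and 14096 in *prmt4a;4b* and 5460, 5080 and 5392 in WT and rose (log2 read change 1.56, SE 0.19, adjusted p = 1.01e-05), while the 4-base segment E006 fell (-0.73, SE 0.31, adjusted p = 0.0803). In the direct test the intron of AT5G66250 stood higher in *prmt5* and the 5-base acceptor segment after it lower, with 5, 23 and 7 reads in *prmt5*, 33, 24 and 13 in *prmt4a;4b* and 33, 13 and 25 in WT (-1.41, SE 0.52, adjusted p = 0.0888). UKL3, a uridine kinase-like gene, had 14, 20 and 15 reads in a 439-base intron in *prmt5*, 2, 1 and 4 in *prmt4a;4b* and 8, 3 and 4 in WT (2.37, SE 0.71, adjusted p = 0.036 in *prmt5* against *prmt4a;4b*). The 121-base segment before it had 3, 4 and 2 reads in *prmt5*, 2, 18 and 13 in *prmt4a;4b* and 3, 4 and 0 in WT and stood lower (-2.16, SE 0.83, adjusted p = 0.106). The intron could be tested only because it reached 5 reads in *prmt5*, and the segment only because it did in *prmt4a;4b*, so each bin had passed through the mutant where it was high.

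After nPAP the genes with most tested bins, 7 each, were GRP9, AT3G10915 and UBQ10. UBQ10 codes for several ubiquitins in tandem, and its 228-base intron-shaped bin E012 had 9346, 19474 and 16129 reads in *prmt5*, 9659, 11331 and 9660 in *prmt4a;4b* and 20377, 23410 and 17992 in WT. Its index was 1.20 ± 0.16 in *prmt5*, 1.19 ± 0.01 in *prmt4a;4b* and 2.10 ± 0.19 in WT and fell in both (log2 read change -0.64, SE 0.19, adjusted p = 0.0182 in *prmt5*, and -0.76, SE 0.13, adjusted p = 0.000385 in *prmt4a;4b*). Without *prmt5* 1 the *prmt5* read change was -0.46, inside the limit of 0.58. The 77-base segment E013 after it fell in *prmt4a;4b* (-0.82, SE 0.15, adjusted p = 0.000445). In GRP9, a glycine-rich protein, no bin was called against WT, and in its 21-base bins E005 to E007 WT 3 had 84, 77 and 77 reads where the other WT libraries had 11 to 28. Its 9-base segment E010 stood lower in *prmt5* than in *prmt4a;4b* (log2 read change -0.61, SE 0.24, adjusted p = 0.127), a call that the removal of either *prmt5* 2 (adjusted p = 0.32), *prmt5* 3 (adjusted p = 0.354) or any 1 *prmt4a;4b* library (adjusted p = 0.186 to 0.205) ended. Both genes code for repeats, so reads could be placed on the wrong copy and their counts are uncertain. In AT3G10915, of the reticulon-like family that shapes the endoplasmic reticulum, no mixed bin was called in any comparison, and 8 of its 9 mixed bins had at most 39 reads in every library.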

How the data were processed

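RNA-seq reads of 9 libraries (100-base single-end, TruSeq) were mapped by the authors to TAIR10 with TopHat2 2.0.9, and the deposited tables hold raw read counts per gene, intron and AS bin, made by the authors with R 3.0.2 over a partition of the annotated transcripts. Strand-specific counting is not given in the sources used here, so reads of overlapping or antisense genes could not be told apart. Columns of the authors' own comparisons (fold changes and p-values) were not used.

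Bin counts were tested here with edgeR 4.0.16 (R 4.3.3, quasi-likelihood, Benjamini-Hochberg over all AS bins tested), with library sizes and TMM factors from gene counts, for each mutant with WT (6 libraries) and for *prmt5* against *prmt4a;4b* in a fit of all 9. The bins tested averaged 5 reads or more in 1 genotype, with a gene density above 0.05 reads per base in both, and a splicing index above 0.05 in 1. Genes needed a mean of 10 reads. The scripts were tested on simulated data. There, 29 of 100 bins with a true log2 change of 1 were found for *prmt5*, and 37 of 100 for *prmt4a;4b*. At a true change of 2 these were 81 and 70 of 100, and 15 and 34 unchanged bins were called. A bin that did not pass can thus still differ.

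Named bins were, for each mutant and direction, the 5 largest index changes with a mean of 50 reads or more and no overlap (1 bin a gene), 5 per direction called in both mutants, 5 per direction between the mutants, called bins of the listed genes, and the 3 genes with most tested bins, extended to 4 for a tie. The members and gene lists were chosen with earlier results of these data known. Alternatives covered normalization, filters, DESeq2 1.42.0, offsets, thresholds, a replicate block and each library left out.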

Additional observations from a re-analysis of the deposited data

Results flagged for a closer look

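In 17 named bins the effect of *prmt5* differed from that of *prmt4a;4b* by the direct edgeR test, given as the log2 read change of *prmt5* against *prmt4a;4b*. Higher in *prmt5* were the introns of AT1G51200 (2.56), AT5G66250 (1.54), AT2G33620 (1.45) and RCA (1.41), the acceptor segments of AT4G19110 (1.54) and CUL1 (1.35), the donor segment of AT2G16940 (1.10) and the 48-base bin of DYL1 (1.17). Lower in *prmt5* were the donor segments of VAB2 (-2.14) and nPAP (-0.85), the introns of LNK2 (-1.61), RLM3 (-1.14) and ACHT4 (-0.91), the exons of PAI1 (-1.30) and FYD (-0.87), and the acceptor segments of AT5G36790 (-0.79) and GRP9 (-0.61). Of these, 8 were called under each of the 18 alternatives. AT1G51200 was among them, but its index passed the limit for testing in *prmt5* only, so under that limit it was tested only because it was high there. Many of the listed bins had been named for the size of their difference in this same test.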

How the results depend on the processing

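At an adjusted p under 0.05, 86 mixed bins were higher and 53 lower in *prmt5*, and 101 higher and 58 lower in *prmt4a;4b*. Between the mutants 29 stood higher and 15 lower in *prmt5*. Of all AS bins tested, 19.1% were then called in *prmt5*, 22.4% in *prmt4a;4b* and 5.77% between the mutants. With gene reads as an offset 157 were higher and 77 lower in *prmt5*, 155 and 92 in *prmt4a;4b*, and 45 and 22 between the mutants. Of all AS bins tested, 32.1%, 36.5% and 8.20% were called in the same order. Leaving out 1 library gave 104 to 151 higher and 54 to 77 lower in *prmt5*, 119 to 169 and 62 to 88 in *prmt4a;4b*, and 30 to 50 and 15 to 41 between the mutants. The share of all AS bins called was then 22.2 to 33.1%, 27.3 to 36.1% and 6.48 to 12.5% in the same order. Scaling from the AS bins moved the median of all bins to 0.09 from 0.20 in *prmt5* (117 higher, 73 lower) and to 0.01 from 0.14 in *prmt4a;4b* (137 higher, 86 lower). All AS bins then gave 590 higher and 593 lower in *prmt5* (27.2% called), and 669 and 646 in *prmt4a;4b* (32.2%). The replicate block gave 117 and 68 in *prmt5*, 143 and 75 in *prmt4a;4b*, and 45 and 31 between the mutants, with 26.2%, 31.4% and 9.70% of all AS bins called. Over the 9 same-numbered pairs the deviations correlated at -0.192 to 0.201, and for replicate 2 all were positive (0.0677, 0.190 and 0.201). Replicate 2 also had the lowest mixed share of AS-bin reads in each genotype. Pairs of different number were not compared, so whether the numbers pair the samples was not settled. The share of AS-bin reads differed by 2.57 to 3.46 points in *prmt5* and 2.94 to 4.28 in *prmt4a;4b* with 1 library left out, and by 0.0965 and -0.0138 as a percent of gene reads. Settings chosen after seeing the data gave 1.66 for *prmt5* without LHCA1, and -0.61 and 0.83 without the 10 genes with most reads. Another such setting, without *prmt5* 1 and *prmt4a;4b* 3 together, gave 39 higher and 25 lower between the mutants (8.88% of all AS bins called).

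Of the named bins, 19 of 30 calls in *prmt5* and 24 of 32 in *prmt4a;4b* held under all 17 alternatives, and 8 of 17 between the mutants under all 18. Reversals were limited to bins of GRP9 that were not called. Without WT 3 the change of AT2G05440:E006 was 1.49 in *prmt5* and 1.54 in *prmt4a;4b*, with lowest values of -0.91 and -0.60 when other libraries were left out, and that of AT2G05440:E007 was 1.20 and 1.29, with lowest values of -1.53 and -1.17. The cause was not tested. Bins under 5 reads could not be assessed at this depth.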
